A study of Homo sapiens with 9 samples.

Results

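The subject is how the transcriptional response to androgen differed when TOP2B was knocked down. The 4 arrays of the shRNA series, out of 9 arrays in all, form a square of knockdown by hormone, with 1 array in each corner. LNCaP cells, an established androgen-dependent line from human prostate cancer, were transfected with a vector that made green fluorescent protein (GFP) and carried either an shRNA against TOP2B (sh-TOP2B) or a control shRNA (sh-control). All 4 groups were then deprived of androgen in 5% charcoal-stripped serum for 48 h, given 100 nM dihydrotestosterone (DHT) or vehicle for 16 h, and sorted for GFP. The groups, in the order used throughout, were sh-TOP2B with DHT, sh-TOP2B with vehicle, sh-control with DHT and sh-control with vehicle. The labels name neither the promoter of the vector nor the number of shRNA sequences, so any effect of one hairpin beyond TOP2B cannot be told apart from knockdown. For each gene, the DHT response is the log2 level with DHT minus the log2 level with vehicle in the same cells. The change of the response is the response of sh-TOP2B cells minus that of sh-control cells, so that a positive value means a higher response after knockdown. Each corner had 1 array, so a change has no replicate of its own, and changes are given as measured, without a test, except in the limma comparison near the end.

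Topoisomerase II beta, the product of TOP2B, cuts both strands of one DNA helix, passes another helix through the break and reseals it. The androgen receptor, once it binds DHT, enters the nucleus and binds response elements made of half-sites related to AGAACA. Topoisomerase II beta has been described at such elements in prostate cancer cells, where it makes transient breaks. Known androgen-induced genes in prostate cells include those of secreted prostate proteases, of chaperones that act on steroid receptors and of enzymes of lipid and glycan synthesis.

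The promoters of 3 genes are shown because, among the genes used below, KLK3 had the highest DHT response in both backgrounds, PGC the largest positive change and CXCR4 the largest negative change among genes with a mean level of at least 8. Each is the RefSeq sequence (GRCh38.p14) of the 250 bases before the gene's start, 5′ to 3′ on the gene's strand, and capitals mark the half-site AGAACA or its complement TGTTCT. They lie at chr19:50854665-50854914 (plus strand) for KLK3, chr6:41747398-41747647 (minus strand) for PGC and chr2:136118150-136118399 (minus strand) for CXCR4.
KLK3: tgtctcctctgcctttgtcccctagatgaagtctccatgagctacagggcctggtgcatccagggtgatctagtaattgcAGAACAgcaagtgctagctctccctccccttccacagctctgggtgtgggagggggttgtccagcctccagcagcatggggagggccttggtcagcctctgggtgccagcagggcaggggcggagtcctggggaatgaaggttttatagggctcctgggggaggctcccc
PGC: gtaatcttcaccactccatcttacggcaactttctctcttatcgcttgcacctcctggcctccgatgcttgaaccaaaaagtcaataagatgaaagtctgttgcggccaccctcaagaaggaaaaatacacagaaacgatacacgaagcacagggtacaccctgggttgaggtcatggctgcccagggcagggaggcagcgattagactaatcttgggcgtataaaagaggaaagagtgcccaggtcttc
CXCR4: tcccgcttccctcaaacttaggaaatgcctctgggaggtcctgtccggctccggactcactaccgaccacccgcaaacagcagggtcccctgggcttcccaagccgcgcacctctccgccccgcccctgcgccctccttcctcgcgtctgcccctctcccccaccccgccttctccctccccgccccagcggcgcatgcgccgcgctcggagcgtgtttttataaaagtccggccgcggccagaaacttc
The KLK3 promoter held 1 half-site, whose first base is at -170 from the start, and those of PGC and CXCR4 held 0. On either strand, and counting 50 bases after the start too, the half-site occurred in 14.9% of all 27305 promoters of this length and in 8.70% of the 9445 that matched a gene used below. It occurred in 4 of the 42 matched promoters of androgen-induced genes (9.52%). The full element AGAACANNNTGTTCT was in 1 promoter of all 27305 and in 0 of these 42. These matches describe the letters of a window, not binding.

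A gene was used where its probe set lay above the median of all probe sets on each of the 4 arrays (medians 5.68 to 5.72, log2). Of 19775 genes, 11464 met this and 8311 did not. The gene nearest the limit inside it, CELF4, exceeded its nearest array median by 0.000498 and had a change of 0.51. The nearest gene outside the limit lay at an array median and had a change of 0.30. Since a gene that DHT switches on from a dim level fails the limit, strongly induced genes can be missing. KLK2, which encodes a prostate kallikrein, is one. It stood at 12.20 and 5.64 in sh-TOP2B cells with DHT and vehicle, against 12.21 and 5.50 in sh-control cells. Both vehicle levels are below the array medians, so no difference is given for it, and its 2 DHT levels lie close together.

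Markers of the labelled cell type were present on all 4 arrays. All 13 measured genes of luminal prostate identity lay above the median on every array. The luminal keratin gene KRT18 stood at 12.84, 12.26, 12.86 and 12.05, and HOXB13, a homeobox gene of the prostate, at 10.06, 10.56, 10.02 and 10.52, in the order of groups given above. Of basal epithelial, stromal and neuroendocrine markers, 3 of 5, 4 of 7 and 3 of 6 were below the median on every array. COL1A1 at 9.26 to 9.63 and ENO2 at 9.51 to 10.22 were the highest of the others. Correlations over all probe sets between any 2 of the 4 arrays lay between 0.981 and 0.990, and at most 1.66% of values were equal. The 3' minus 5' difference of the beta-actin control probe sets, a measure of RNA integrity, was 2.38 and 2.69 in sh-TOP2B cells with DHT and vehicle, against 2.67 and 3.09 in sh-control cells. The sh-control vehicle array was thus the highest of the 4 and the sh-TOP2B DHT array the lowest. Both enter every change with a positive sign. The same difference was 0.46 and 0.47 on the untransfected DHT and vehicle arrays.

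TOP2B itself was lower in sh-TOP2B cells with either treatment. Its 1 probe set read 10.01 and 10.09 in sh-TOP2B cells with DHT and vehicle, against 10.87 and 10.54 in sh-control cells. Both knockdown arrays lie below both control arrays. The differences of -0.86 with DHT and -0.45 with vehicle correspond to levels 1.81-fold and 1.37-fold lower. In bulk RNA of a sorted pool, fewer cells with the transcript and less transcript per cell cannot be told apart. TOP2B had a DHT response of -0.07 in sh-TOP2B cells and 0.33 in sh-control cells, a change of -0.40. Its paralog TOP2A, the topoisomerase II of dividing cells, read 9.17, 8.82, 9.05 and 8.97, a change of 0.27. Of the 8 genes of topoisomerases and of enzymes that remove their protein adducts from DNA, 4 had changes below 0 and 4 above, with a median of 0.02.

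The DHT responses in the 2 backgrounds were alike in outline. In sh-TOP2B cells 167 genes were higher with DHT by at least 1 (1.46% of the 11464) and 132 lower (1.15%). In sh-control cells 226 were higher (1.97%) and 168 lower (1.47%). Of those higher, 129 met the limit in both backgrounds, which is 77.2% of the sh-TOP2B genes and 57.1% of the sh-control genes. Of those lower, 88 did, or 66.7% and 52.4%. Across the 11464 genes, which are not independent replicates, the 2 responses correlated at a Pearson r of 0.727 and a Spearman rho of 0.576. They share no array, but were made in one series by the same steps. As a description of their size, the SD over genes was 0.39 for the response of sh-TOP2B cells, 0.43 for that of sh-control cells and 0.30 for the change.

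**Figure D1:**
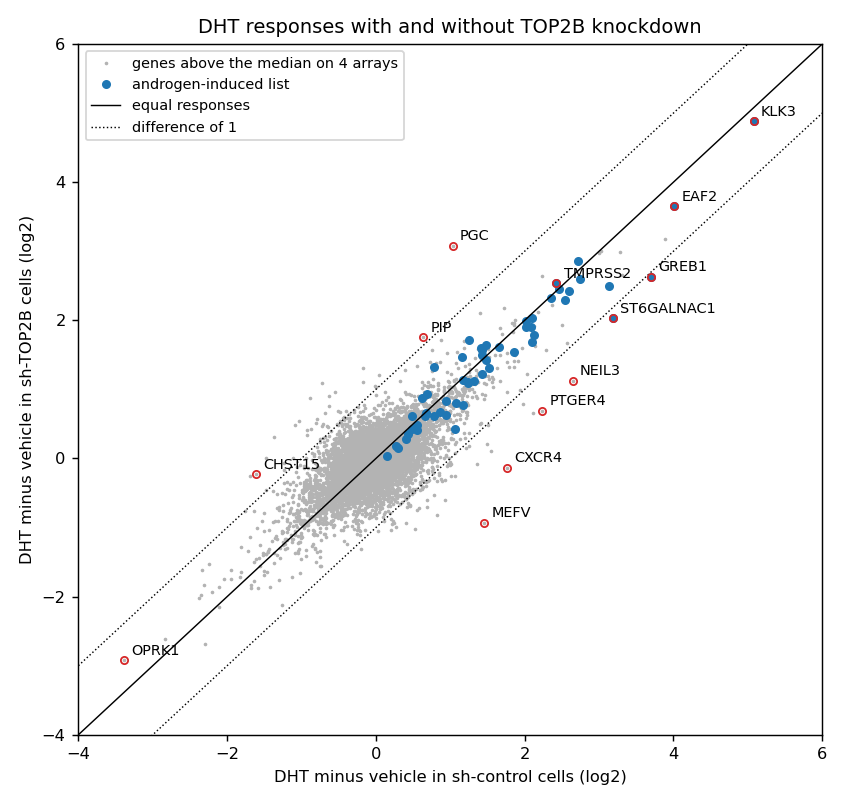
DHT response (DHT minus vehicle, log2) in sh-TOP2B cells on the vertical axis against sh-control cells on the horizontal axis, with 1 point for each of 11464 genes. Most androgen-induced genes lie just below the line of equal responses, and red circles mark named genes. Of these, PGC, CHST15 and PIP lie above the band of 1, and CXCR4, PTGER4, NEIL3, MEFV, GREB1 and ST6GALNAC1 below it.

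A change of at least 1 was found in 45 genes upward (0.393%) and 61 downward (0.532%), 0.925% of those used in all. The median change was 0.0022, 49.6% of changes were below 0, and 90.4% were smaller than 0.5 in size. The smallest change inside the limit was 1.002 in size and the largest outside it 0.998. How often a change reached 1 depended on the level of the gene. Among 1756 genes with a mean level below 7 it did in 3.42%, among 1697 with a level of 7 to 8 in 1.83%, and among 1956 with a level of 8 to 9 in 0.460%. Above 10 it did in 1 gene, CXCR4. Among the 8311 dim genes left out, a change of at least 1 was found upward in 4.02% and downward in 3.08%. The SD of the change was lower at higher levels too, at 0.46 in the lowest of these bins and 0.13 in the 754 genes above 12. Of 21 genes past the limit with more than 1 probe set above the median, 12 had all such probe sets on the same side of 0 and 2 had all of them past 1. Within a gene, the SD of the change between probe sets had a median of 0.19 over 5531 genes.

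**Figure D2:**
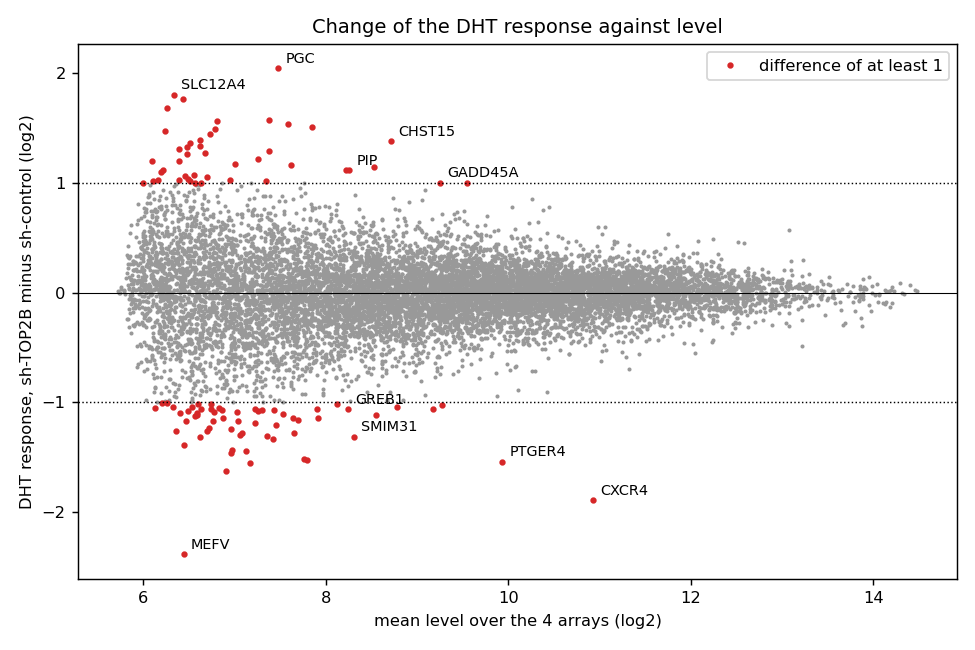
Change of the DHT response (sh-TOP2B minus sh-control, log2) against the mean level over the 4 arrays (log2), with 1 point for each of 11464 genes. Red points are the 106 genes with a change of at least 1, most of which have levels below 8, and CXCR4 and PTGER4 stand apart at levels of about 11 and 10.

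Among the 61 genes with a lower response, the farthest of the 4 arrays from their median was the sh-control vehicle array in 31 and each of the others in 9 to 11. Among the 45 with a higher response it was the sh-control vehicle array in 16 and each of the others in 7 to 11. This is the array with the largest beta-actin difference, and the part of RNA quality in these changes was not tested. In 40 of the 61 and 27 of the 45 genes, the 2 vehicle arrays differed more than the 2 DHT arrays. These counts of arrays were not made over all 11464 genes, so they cannot be called particular to the genes past the limit. In 49 of the 61 and 35 of the 45 the responses of the 2 backgrounds had opposite signs. These genes were chosen on the difference of the 2 responses, which in itself favours opposite signs. The size of the untransfected response was under 0.5 in 51 of the 61 and 40 of the 45, and in 97.2% of all 11464 genes.

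The proteases of the androgen programme had nearly the same response in both backgrounds. KLK3, which encodes prostate-specific antigen, read 13.76 and 8.88 in sh-TOP2B cells with DHT and vehicle, against 13.80 and 8.72 in sh-control cells. Its responses were 4.88 and 5.08, or 29.5-fold and 33.8-fold, and its change was -0.20. Its other 2 probe sets had changes of -0.05 and 0.05, so the 3 probe sets do not share a sign. TMPRSS2, a membrane serine protease whose promoter drives ETS gene fusions in many prostate cancers, read 11.68 and 9.14 in sh-TOP2B cells, against 11.71 and 9.28 in sh-control cells, a change of 0.11. Its other 2 probe sets above the median gave 0.23 and 1.08. At the last, sh-TOP2B cells with vehicle read 6.24 and sh-control cells with vehicle 7.47, while the DHT levels were 9.05 and 9.20. KLK4, another kallikrein gene, and the metalloprotease gene ADAMTS1 had changes of -0.14 and -0.12. With DHT the backgrounds differed by -0.04 in KLK3 and -0.03 in TMPRSS2. KLK3 shares sequence with other kallikrein genes, so some of its probes may read more than one of them.

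Genes listed as transcription and nuclear factors, with the scaffold gene HOMER2 among them, had a median change of -0.19. All 11 members used were below 0, against 49.6% of all genes, but ZBTB16, a zinc-finger repressor gene, lay at -0.011 and took the other sign when arrays were centred on control genes (0.007). ZNF350 took the other sign with the median of its probe sets (0.28). Against the mean of the sh-control and untransfected responses, NCAPD3 was at 0.84, HOMER2 at 0.52, ELL2 at 0.30 and CREB3L4 at 0.24. In that comparison ZNF350 was at 0.19, CENPN at 0.14 and MAF at 0.12, so all of these took the other sign. ZBTB16, BRIP1, GREB1 and ZBTB10 stayed below 0. GREB1, a hormone-induced growth regulator, had the largest change of the 11. It read 9.43 and 6.80 in sh-TOP2B cells with DHT and vehicle, against 10.23 and 6.54 in sh-control cells. The sh-TOP2B array with DHT is the lower of the 2 DHT arrays, and the responses were 2.63 and 3.69, a change of -1.06. Its other 2 probe sets, both dim, gave -0.17 and -0.15, and the median of the 3 was -0.15. BRIP1, a helicase gene of DNA repair, had a change of -0.63, with responses of 0.43 and 1.06. ZBTB16 had responses of 2.45 and 2.46, and the elongation factor gene ELL2 had 1.12 and 1.32.

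Genes of signalling and chaperones spread around 0. Of 12 members, 7 had changes below 0, with a median of -0.04. FKBP5, a co-chaperone of steroid receptors, read 13.16 and 11.13 in sh-TOP2B cells with DHT and vehicle, against 13.20 and 11.10 in sh-control cells, a change of -0.07. IGF1R, the receptor of insulin-like growth factor 1, read 10.06 and 7.56, against 10.33 and 7.21, a change of -0.63. The kinase gene SGK1 had a change of -0.41. Against the mean of the sh-control and untransfected responses, IGF1R was at 0.67, SGK1 at 0.59 and FKBP5 at 0.48. RAB3B was at 0.37, MAP7D1 at 0.35, PMEPA1 at 0.31 and DBI at 0.11 in that comparison. All 7 members with changes below 0 thus took the other sign. On the other side, PTPRM, a receptor tyrosine phosphatase, had responses of 1.32 and 0.78 and a change of 0.53, the highest of the list. INPP4B, a phosphoinositide phosphatase gene, was at 0.47 and the kinase gene CAMKK2 at 0.30, but with the median of their probe sets they took the values -0.46 and -0.02. The other 3 probe sets of INPP4B, all dim, gave -0.15, -0.21 and -0.71.

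Among the genes of glycosylation, secretion and a few further roles, ST6GALNAC1 stood apart. It encodes a sialyltransferase that adds sialic acid to O-linked N-acetylgalactosamine. It read 8.94 and 6.91 in sh-TOP2B cells with DHT and vehicle, against 9.06 and 5.87 in sh-control cells. The 2 DHT levels lie close, and the lowest of the 4 is sh-control with vehicle, which lies just above the array median. The responses were 2.03 and 3.19, a change of -1.16. EAF2, which encodes a partner of ELL elongation factors and was listed with this group, had the second largest response in both backgrounds, 3.65 and 4.01. The other members had changes between -0.40 (SEC24D) and 0.25 (SPDEF, -0.13 with the median of its probe sets). Genes of metabolism and transport stayed close to their control responses, with 12 of 15 changes below 0 and a range of -0.34 to 0.23. ABCC4, an efflux transporter gene, had responses of 2.86 and 2.72, and SLC45A3, which encodes prostein, 2.30 and 2.54.

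**Figure D3:**
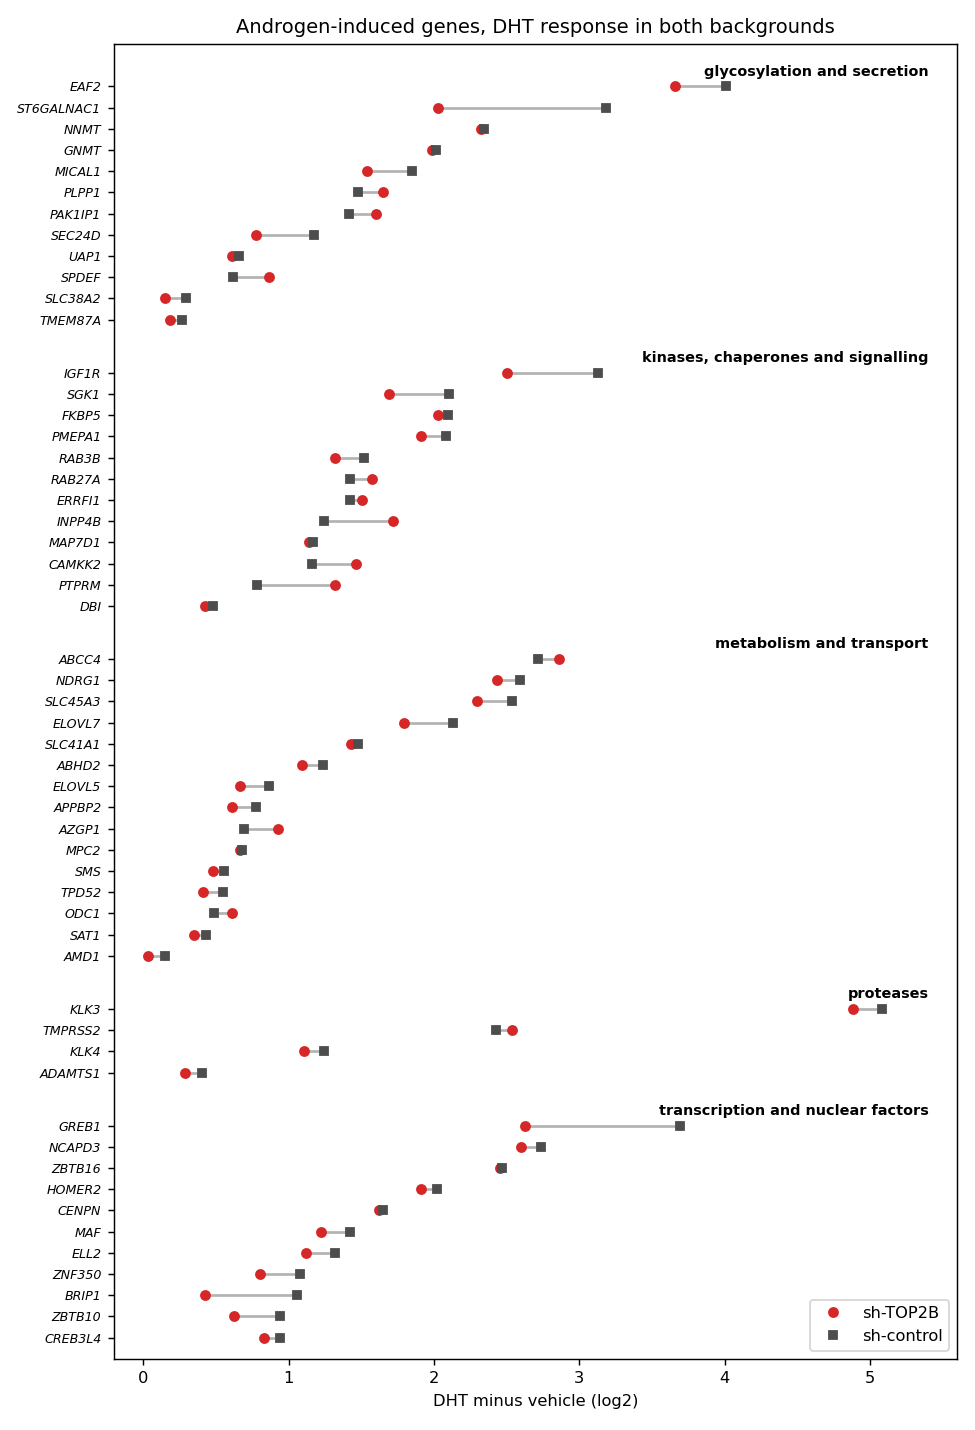
DHT response (DHT minus vehicle, log2) of 54 androgen-induced genes, grouped by role, as red circles for sh-TOP2B cells and grey squares for sh-control cells (1 pair of arrays each). In most rows the red circle lies slightly left of the square, with the widest gaps at ST6GALNAC1 and GREB1.

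Taking the androgen-induced list as a whole, 59 of its 68 genes were measured, 54 of them above the median on all 4 arrays. Of these 54, 42 had a change below 0, against 49.6% of all genes. Of the 54, 2 had a change of -1 or lower (GREB1 and ST6GALNAC1), against 0.532% of all genes. A change of 1 or higher was found in 0, against 0.393% of all genes. The median change was -0.11, against 0.0022 over all genes. Median responses were 1.37 in both sh-TOP2B and sh-control cells. A response of at least 1 was found in 34 and 36 members, against 1.46% and 1.97% of all genes. Set against the mean of the sh-control and the untransfected responses, the list's median change was 0.32, so its sign depends on which cells serve as the comparison. The median response of the list in untransfected cells was 0.35.

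A second set of genes, which overlaps the list above, was chosen on the untransfected DHT and vehicle arrays, which do not enter the change. There, 24 of the 11464 genes were higher with DHT by at least 1 (0.209%) and 2 lower (0.0174%). Of 33 genes higher with DHT by at least 1 among all 19775, 23 were above the median on all 4 shRNA arrays and on at least 1 of those 2 arrays. Their median responses were 1.504 in sh-TOP2B cells and 1.652 in sh-control cells. Of these genes, 16 and 17 reached 1, against 1.46% and 1.97% of all genes. The median change was -0.06, with 16 of 23 below 0, against 49.6% of all genes. At 1 or higher there were 0, against 0.393% of all genes. GREB1 and ST6GALNAC1 are the 2 at -1 or lower, the same genes as above. In all, 9 genes are on both lists (39.1% of the 23 and 16.7% of the 54), and the 14 others had a median change of -0.03, with 8 below 0. CENPN, a gene of centromere assembly, had responses of 1.62 and 1.65, ENDOD1, an endonuclease domain gene, 1.52 and 1.77, and STK39, a kinase gene of ion transport, 1.47 and 1.52. IQGAP2, a scaffold gene, had 1.31 and 1.62. RLN2, the relaxin gene, and the glucuronosyltransferase gene UGT2B17, which were higher with DHT by 1.08 and 1.20 in untransfected cells, had responses of -0.06 and -0.29 in sh-TOP2B cells and -0.04 and -0.34 in sh-control cells. Close paralogs such as the UGT2B genes can share probes, so the member measured is uncertain.

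Of 16 androgen-repressed genes used, 6 had a response of -1 or lower in sh-TOP2B cells and 5 in sh-control cells. Over all genes these shares were 1.15% and 1.47%. The median change of the list was -0.05. CXCR4, described below, was the 1 member with a change of -1 or lower, against 0.532% of all genes. Contrary to the name of the list, 1 member was higher with DHT by at least 1 in sh-TOP2B cells (BMPR1B, a bone morphogenetic protein receptor gene) and 2 in sh-control cells (BMPR1B and CXCR4). The shares of all genes higher by as much were 1.46% and 1.97%. OPRK1, the kappa opioid receptor gene, read 7.01 and 9.93 in sh-TOP2B cells with DHT and vehicle, against 6.72 and 10.11 in sh-control cells. Its responses were -2.92 and -3.39, a change of 0.47. The chemokine receptor gene ACKR3 had responses of -1.07 and -1.01, PGM2L1 -1.40 and -1.33, and CAMK2N1, which encodes a calcium/calmodulin kinase inhibitor, -1.01 and -0.96.

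The 10 largest negative changes ran from -1.44 to -2.39. CXCR4, the receptor of the chemokine CXCL12 and a member of the repressed list, read 11.58 and 11.71 in sh-TOP2B cells with DHT and vehicle, against 11.10 and 9.34 in sh-control cells. One array, sh-control with vehicle, is low and the other 3 lie close together. The responses were -0.13 and 1.76, a change of -1.89. Its other 2 probe sets, not above the median on every array, had changes of -2.31 and -1.45. Its change was -0.82 against the mean of the sh-control and untransfected responses. In untransfected cells CXCR4 read 6.27 with DHT and 6.65 with vehicle.

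PTGER4, which encodes the prostaglandin E2 receptor EP4, was also lowest in sh-control cells with vehicle. It read 10.90 and 10.21 in sh-TOP2B cells, against 10.43 and 8.20 in sh-control cells, with responses of 0.69 and 2.23 and a change of -1.54. Its other probe set, which was dim, gave 0.34, and the median of the 2 was -0.60. NEIL3, a DNA glycosylase gene, read 8.62 and 7.49, against 8.80 and 6.15, a change of -1.52. Against the mean of the sh-control and untransfected responses, PTGER4 was at -0.79 and NEIL3 at -0.24. In both genes the DHT levels of the backgrounds lie close and the sh-control vehicle level is the lowest of the 4. OFD1, a centriole and cilium gene, had a change of -1.46, but -0.23 at its other probe set.

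MEFV, the gene of the inflammasome sensor pyrin, had the largest change of all, -2.39. It read 5.77 and 6.71 in sh-TOP2B cells with DHT and vehicle, against 7.38 and 5.92 in sh-control cells. The levels of sh-TOP2B cells with DHT and sh-control cells with vehicle lie close to the array median, and the responses have opposite signs, -0.93 and 1.46. The remaining genes of this group, PRIMA1, TEX9, ZNF708, ARHGAP33 and GJC1, had mean levels below 8 and changes of -1.63 to -1.44. The change of ARHGAP33 became 0.042 and that of GJC1 0.71 when the median of all probe sets of the gene was taken.

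The largest positive change belonged to PGC, which encodes pepsinogen C, an aspartic protease precursor also made by prostate epithelium. PGC read 9.29 and 6.21 in sh-TOP2B cells with DHT and vehicle, against 7.72 and 6.68 in sh-control cells. The sh-TOP2B DHT array is the highest of the 4, by 1.58 above the sh-control DHT array, and the sh-TOP2B vehicle array the lowest. The responses were 3.08 and 1.03, or 8.46-fold and 2.05-fold, a change of 2.05. The other probe set, dim with vehicle on both backgrounds, gave 2.27. In untransfected cells the response was 0.28.

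The other 9 genes with the largest positive changes were SLC12A4, a potassium-chloride cotransporter gene (1.81), TEPSIN, an adaptor gene of vesicle coats (1.77), KITLG, the gene of stem cell factor (1.68), SIRT7, a deacylase gene (1.58), LOC100130987 (1.57), LMF1, a gene of lipase maturation (1.54), IDI2-AS1 (1.51), LINC03026 (1.496) and FLVCR2, a membrane transporter gene (1.48). All 9 had mean levels below 8, and all 9 had a negative response in sh-control cells and a positive one in sh-TOP2B cells. A ranking on the difference of these 2 responses favours that pattern. SLC12A4 read 6.82 and 5.73 in sh-TOP2B cells, against 6.04 and 6.76 in sh-control cells, so the background with the higher level switched with the treatment. Probe sets of SLC12A4 ranged from -0.80 to 1.81 and those of LMF1 from -1.03 to 1.54. KITLG took the value -0.31 with the median of its probe sets. TEPSIN gave 0.13 at its other probe set above the median, and 0.35 with the median of its probe sets.

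Of the genes with a change of at least 1, 15 had a mean level of 8 or more, 6 upward and 9 downward, and those not named so far were chosen after their values were seen. PIP, a secreted protein gene known to be induced by androgen in breast cells, read 9.69 and 7.94 in sh-TOP2B cells with DHT and vehicle, against 8.02 and 7.39 in sh-control cells. The sh-TOP2B DHT array was again the highest, and the change was 1.12. CHST15, a chondroitin sulfotransferase gene, read 9.32 and 9.54, against 7.19 and 8.80. Here the sh-control DHT array is the low one, and the change was 1.38.

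GADD45A, a stress sensor and p53 target, showed the same form at 9.82 and 9.52 in sh-TOP2B cells, against 8.48 and 9.19 in sh-control cells, a change of 1.00. SOX9, a transcription factor gene of progenitor cells, read 9.31 and 9.38, against 8.70 and 7.73, a change of -1.04, and its 2 probe sets gave -1.14 and -1.04. SMIM31 read 9.99 and 10.53 in sh-TOP2B cells, against 6.74 and 5.96 in sh-control cells, so that its difference between backgrounds exceeded its change of -1.31. The cystathionine gamma-lyase gene CTH (-1.02), the circadian repressor gene BHLHE40 (-1.01), MAP3K3 (-1.06) and DYNLRB2 (-1.11) were lower. CDCA2 (1.15), MATCAP2 (1.12) and the cholesterol transfer gene STARD4 (1.00) were higher.

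**Figure D4:**
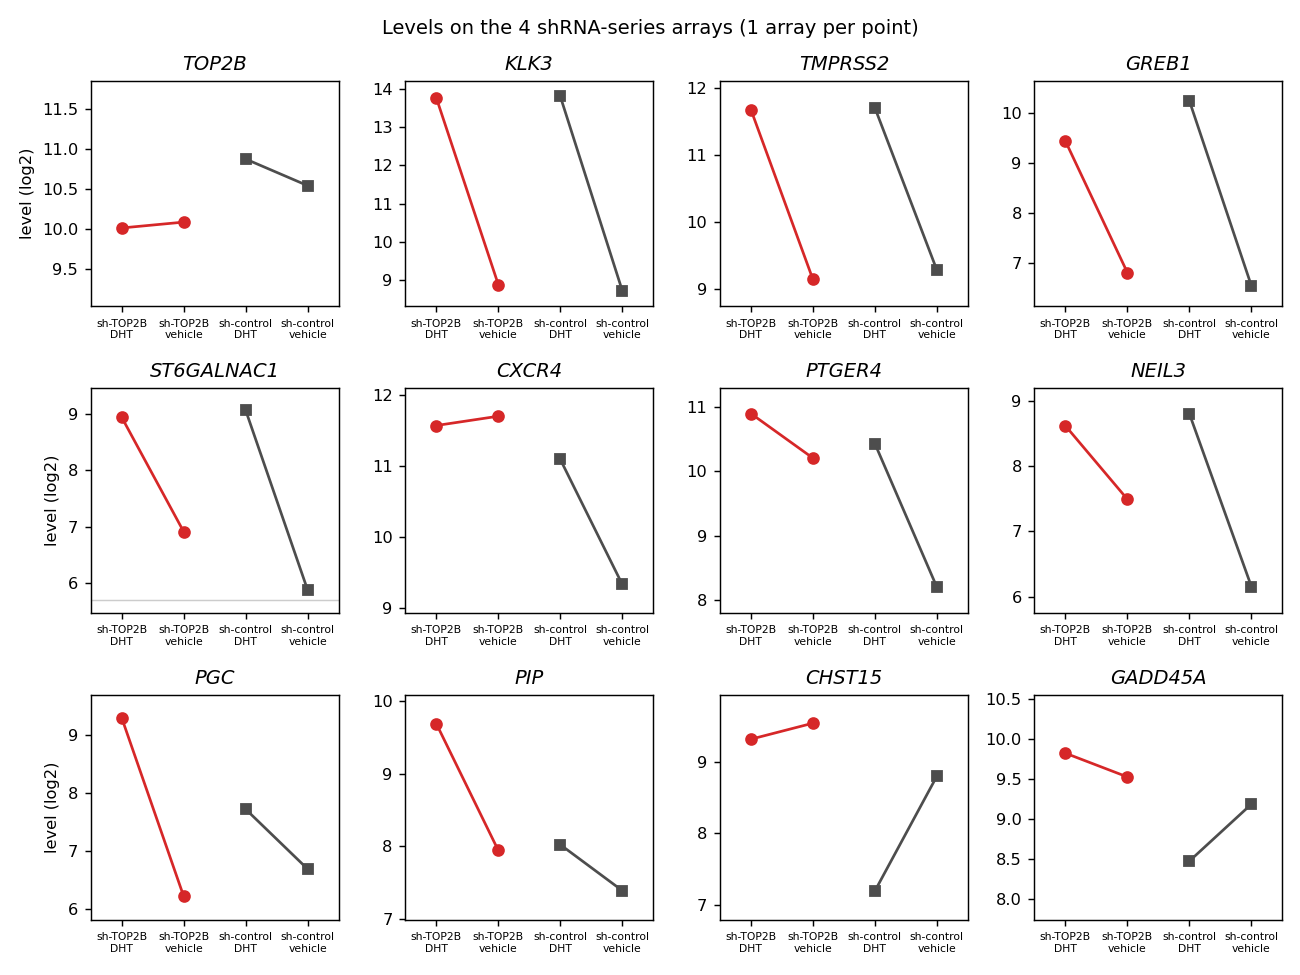
Levels (log2) of 12 genes on the 4 arrays, with sh-TOP2B as red circles and sh-control as grey squares, DHT left of vehicle in each pair, 1 array per point and a separate vertical scale in each panel. KLK3 and TMPRSS2 have parallel lines, CXCR4, PTGER4 and NEIL3 have a low sh-control vehicle point, and PGC and PIP a high sh-TOP2B DHT point.

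Interferon response genes differed between the backgrounds with either treatment. Of 24 genes used, 15 were higher in sh-TOP2B cells by at least 1 with DHT (0.942% of all genes) and 14 with vehicle (0.994%). By as much, 0 were lower with DHT (0.0785%) and 0 with vehicle (0.122%). IFIT1, an effector that binds viral RNA, read 13.32 and 13.43 in sh-TOP2B cells with DHT and vehicle, against 8.55 and 8.94 in sh-control cells. ISG15, a ubiquitin-like modifier gene, read 13.07 and 13.13, against 10.55 and 10.89. Both knockdown arrays lie far above both control arrays in these genes.

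The median DHT response of the interferon list was -0.17 in sh-TOP2B cells and -0.39 in sh-control cells. The median change was 0.18, with 18 of 24 changes above 0, against 50.4% of all genes. At 1 or higher there were 0, against 0.393% of all genes. RIGI, a sensor of viral RNA, read 11.59 and 11.73, against 8.77 and 9.68, with responses of -0.13 and -0.91 and a change of 0.78. MX1, an antiviral GTPase gene, had a change of 0.92 at levels between 6.08 and 7.09. IFIT2, IFIH1 and the immunoproteasome gene PSMB9 had changes of 0.54, 0.44 and 0.41. In the other direction, OAS1, a sensor that activates RNase L, had responses of -0.48 and -0.39 beside a level 3.79 higher in sh-TOP2B cells with DHT. IRF7, a transcription factor of the interferon response, had responses of -0.31 and -0.11 and the lowest change, -0.21.

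**Figure D5:**
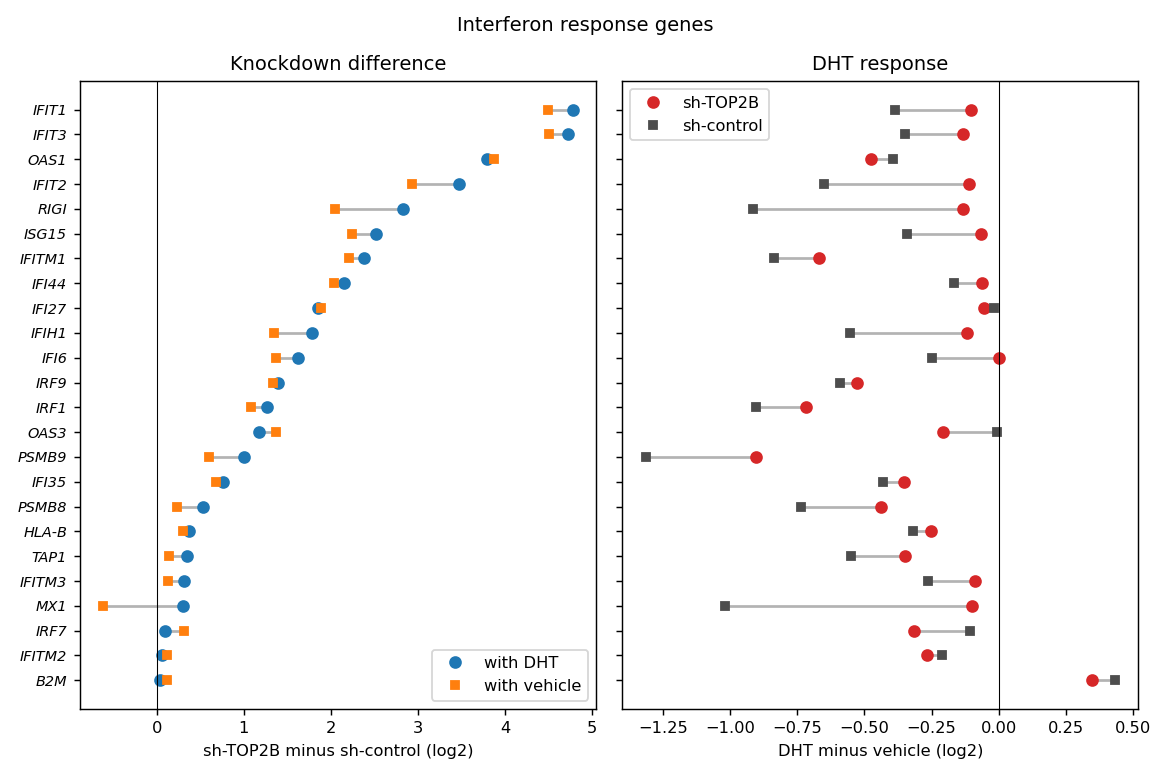
Left, sh-TOP2B minus sh-control (log2) of 24 interferon response genes with DHT (blue circles) and with vehicle (orange squares). Right, DHT minus vehicle (log2) of the same genes in sh-TOP2B cells (red circles) and sh-control cells (grey squares), 1 pair of arrays each, where RIGI and MX1 have the widest gaps.

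Of 27 targets of p53, 18 had a change above 0, against 50.4% of all genes. The median change was 0.14, with median responses of -0.11 in sh-TOP2B and -0.27 in sh-control cells. GADD45A was the 1 member at 1 or higher, against 0.393% of all genes, and GDF15, a stress cytokine gene, and TP53I3, an oxidoreductase gene, followed at 0.59 and 0.58, as did the decoy receptor gene TNFRSF10C at 0.60. CDKN1A, the gene of the p21 inhibitor of cyclin-dependent kinases, read 10.48 and 11.25, against 10.30 and 11.25, a change of 0.18, and MDM2, which limits p53, had -0.07. TIGAR was lowest at -0.25.

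Genes of cell division had median responses above 0 in both backgrounds. The 29 DNA replication genes had median responses of 0.49 in sh-TOP2B cells and 0.42 in sh-control cells, with a median change of 0.07 and a range of -0.54 (CHAF1A) to 0.41 (POLA2). Both of these took the other sign with the median of their probe sets, at 0.26 for CHAF1A and -0.39 for POLA2. CDC6, which loads the replicative helicase, had responses of 1.28 and 1.35, and MCM10, a replication initiation gene, 1.34 and 1.19. The 26 mitosis genes had medians of 0.39 and 0.23 and a median change of 0.07, with 19 changes above 0, against 50.4% of all genes. CDC20, an activator of the anaphase-promoting complex, was highest at 0.52. KIF2C, a kinesin gene, was lowest at -0.50, but at -0.12 with the median of its probe sets.

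Of 21 unfolded protein response genes 16 had a change below 0, against 49.6% of all genes, with a median of -0.07. A change of 1 in size was reached by 0, against 0.925% of all genes. DNAJB9, a chaperone gene of the endoplasmic reticulum, was lowest, with responses of 0.54 and 1.00 and a change of -0.46, and DNAJB11 was highest at 0.22. Of 20 sterol and fatty acid synthesis genes 14 were below 0, with a median of -0.03, and 0 reached 1 in size, against the same 0.925%. FASN, the fatty acid synthase gene, had responses of 0.31 and 0.90 and a change of -0.59, but its 2 probe sets disagreed (-0.59 and 0.49). HMGCS1, an enzyme gene early in sterol synthesis, was highest at 0.13, but its other probe set gave -0.12.

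The other lists had median changes between -0.07 and 0.07, against 0.0022 over all genes. Medians were -0.07 for 22 androgen receptor coregulators (CREBBP -0.47, KAT5 0.33) and 13 luminal identity genes (KRT8 -0.28, SPDEF 0.25). They were 0.05 for 18 genes of chromosome structure (NIPBL -0.51, STAG1 0.32), for 23 of break repair and checkpoint (DCLRE1C -0.75, MRE11 0.55, the last -0.02 with the median of its probe sets) and for 12 histones (H2AC6 -0.16, H2AC8 0.33). They were 0.06 for 23 integrated stress response genes (SLC7A5 -0.81, VLDLR 0.45). They were 0.07 for 14 immediate early genes (ZFP36 -0.19, DUSP1 0.42, the last -0.11 with the median of its probe sets). For 22 nuclear oxidative phosphorylation genes the median was also 0.07 (SDHC -0.15, NDUFB5 0.46). The 7 probe sets of SDHC, all above the median, ranged from -1.42 to 0.19. The 8 NF-kB targets had a median of 0.02 (TNFAIP2 -0.41, CCL20 0.22). The 10 heat shock genes had a median of -0.0017 (HSP90AA1 -0.20, HSP90AB1 0.11). In these 10 lists 0 genes had a change of 1 or more in size at the probe set that stood for the gene. Over all genes it was 0.925%, a share that leaves few in lists this short. The 23 control genes, mostly of ribosomal proteins, ranged from -0.30 (RPL27) to 0.14 (RPL30).

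By gene length, a split chosen after the data were seen, the median change was 0.03 for 2601 genes that span under 10 kb and -0.06 for 714 that span 200 kb or more. The SDs over these genes were 0.31 and 0.32, and the difference was not tested.

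The sh-TOP2B response was also set against the other 2 DHT responses, those of sh-control and untransfected cells, with limma over the 11464 genes. That fit takes its spread from how far these 2 responses differ, which includes transfection and sorting, and leaves 1 residual degree of freedom with 5.54 prior degrees of freedom. It called 0 genes (0% of those fitted) at an adjusted p of 0.05, with a smallest adjusted p of 1 and 172 genes at an unadjusted p under 0.05. PGC had the smallest unadjusted limma p, with a difference of 2.42 ± 0.40 (SE) from the mean of the other 2 responses (unadjusted p = 0.00067, adjusted p = 1.00). For ST6GALNAC1 the difference was -1.15 ± 0.29, for PIP 1.16 ± 0.30 and for CXCR4 -0.82 ± 0.77. The 2 CXCR4 responses without knockdown, 1.76 in sh-control and -0.38 in untransfected cells, lie far apart. KLK3 was at -0.32 ± 0.24 and TMPRSS2 at 0.57 ± 0.37. With a median SE of 0.28 per gene and no replicate of the sh-TOP2B pair, a call that was not made does not show that the responses were equal. Over genes the untransfected response differed from the sh-control response with an SD of 0.41, against 0.30 for the sh-TOP2B response, both measured from the same sh-control arrays.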

How the data were processed

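Gene expression was measured on Affymetrix U133 Plus 2.0 type arrays with 54675 probe sets. The authors deposited log2 values. Per the submitters' processing notes the tool was RMA, whose version is not given in the sources used here. This method removes shifts shared by most genes.

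Probe sets with 1 gene symbol (41097; 1801 had several and 11777 none) were named from the platform annotation, of which 41043 matched RefSeq (GRCh38.p14). Where several probe sets named a gene, the one brightest on average across all 9 arrays stood for it. Some genes are not reported here. Genes had to exceed the array median on all 4 arrays. A change was counted at 1 (log2) or more. Each group had 1 array, and nothing in the labels names separate cultures, so the p-values rest on how these samples spread, which may be technical. RMA arrays give no detection call, and their number limits the precision.

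limma 3.58.1 in R 4.3.3 (two-sided, Benjamini-Hochberg, empirical Bayes with a trend) fitted all 9 arrays with 3 backgrounds as blocks, DHT, the interaction of DHT with sh-TOP2B and 1 term each for the arrays with etoposide, with merbarone and at steady state. It was tested on simulated data with independent noise, and no power for changes of the size measured here is claimed from that.

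The members, lists and tests were chosen with earlier results of these data known. Named genes were the 10 largest changes each way, the highest and lowest member of each list with at least 5 genes used, all androgen-induced genes used, those chosen on the untransfected pair and TOP2B, TOP2A, KLK3, TMPRSS2 and FKBP5. Other list members named as examples, and the genes with a level of at least 8, were chosen after their values were seen. Alternatives covered probe set choice, filters, centring, quantile normalization, threshold and comparison cells.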

Additional observations from a re-analysis of the deposited data

Results flagged for a closer look

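The genes named here had a change of at least 1 and DHT responses of opposite sign in the 2 backgrounds, with 1 pair of arrays each, and the difference was not tested. Since a change is the difference of the 2 responses, a choice of large changes favours opposite signs. In 6 of them the response was negative in sh-TOP2B cells and positive in sh-control cells, and the changes were those of MEFV (-2.39), CXCR4 (-1.89), PRIMA1 (-1.63), TEX9 (-1.55), ZNF708 (-1.53) and GJC1 (-1.44). In 10 it was positive in sh-TOP2B cells and negative in sh-control cells: SLC12A4 (1.81), TEPSIN (1.77), KITLG (1.68), SIRT7 (1.58), LOC100130987 (1.57), LMF1 (1.54), IDI2-AS1 (1.51), LINC03026 (1.496), FLVCR2 (1.48) and GADD45A (1.00). CXCR4 and GADD45A are the 2 with a mean level above 8. The change of CXCR4 was below 0 at all 3 of its probe sets, but its response in sh-TOP2B cells was -0.13, -0.06 and 0.32 at these, so the opposite sign was not found at every probe set.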

How the results depend on the processing

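No paired analysis was possible because each group has 1 array, and for the same reason no replicate could be left out. The count of higher and lower responses in sh-TOP2B cells, 45 and 61, became 379 and 317 without the filter on dim genes, 12 and 23 with a filter at the 60th percentile, 327 and 418 at a threshold of 1.5-fold, and 6 and 9 for genes with a mean level of at least 8, an alternative chosen after seeing the data. Against the mean of the sh-control and untransfected responses it was 33 and 31, and the median change of the androgen-induced list became 0.32. The share of higher among all counted was 42.5%, and 54.5% without the filter. Counts stayed within 1.5 times with the median over probe sets (40 and 55), centring on control genes (49 and 57), quantile normalization again (54 and 54) and, chosen after seeing the data, only genes whose probe sets share a sign (41 and 56). Under centring, renormalization, filters, the probe set median and a floor at the array median, that list's median stayed between -0.12 and -0.08. limma called 0 genes without the trend, with a filter at the 40th percentile and with no filter, and 622 genes of 19775 had an unadjusted p below 0.05 when dim genes were kept. Of 126 named genes, 18 took the other sign with the median over probe sets, 44 against the mean of both responses, 2 with centring and 4 with renormalization. Those with a change of at least 1 were ARHGAP33 (0.042), GJC1 (0.71) and KITLG (-0.31), all with the probe set median; the cause was not tested. Of 504 values under these 4 alternatives, 381 moved by less than the median SD between probe sets, 0.19, and, beside these 3, 120 by more, 84 of them with the mean of both responses as the comparison and 36 with the probe set median. Dim levels limit what can be read: 8311 genes, KLK2 among them, were not used.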
